A study of Homo sapiens with 9 samples.

Results

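SESN1 and SESN2 are genes of the sestrin family, and the platform annotation gave each of them 1 probe set among 53617. They were the 2 genes chosen here of 14884 with a symbol, by their symbols, and SESN3, the remaining family member, is given as context. The pair was chosen by its measured differences between cells exposed to 5 nm silver particles and unexposed cells, positive for SESN2 and negative for SESN1, so that comparison is described for these genes and not tested. The cells were EA.hy926, an established line made by fusing umbilical vein endothelial cells with the A549 lung carcinoma line. Of 9 arrays, 3 came from cells exposed to 5 nm silver nanoparticles, 3 from cells exposed to 100 nm silver nanoparticles and 3 from unexposed control cells. Exposure lasted 6 h at a concentration close to the LD50 of each particle; since neither mass dose is stated in the labels, particle size and dose cannot be told apart. All arrays share the cell line, and the labels do not call the replicates separate cultures; the p-values below therefore rest on a spread between arrays that may be technical.

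Sestrins are small cytosolic proteins made under stress. They bind the GATOR2 complex at the lysosome and thereby hold back mTORC1, the kinase complex that drives protein synthesis and growth, and SESN2 also senses leucine in this role. Sestrins have also been linked to the recycling of peroxiredoxins, enzymes that remove peroxides, and to AMPK, the kinase that responds to low cellular energy. The paralogs answer to different signals: SESN1 and SESN3 are known as targets of FOXO factors, and SESN2 as a target of ATF4, which is translated in the integrated stress response, and of NRF2, the antioxidant factor.

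Because the paralogs are known for different regulators, the DNA around their starts is shown, from RefSeq on GRCh38.p14, as 250 bases before and 50 after a start. All 3 sestrins had an entry, SESN2 and SESN3 with 1 start and SESN1 with 3. The windows printed are that of SESN2 at chr1:28259268-28259567 on the + strand and that of the second SESN1 start, the one with an antioxidant element, at chr6:109009503-109009802 on the - strand, and capitals mark matches to the motifs searched.
SESN2: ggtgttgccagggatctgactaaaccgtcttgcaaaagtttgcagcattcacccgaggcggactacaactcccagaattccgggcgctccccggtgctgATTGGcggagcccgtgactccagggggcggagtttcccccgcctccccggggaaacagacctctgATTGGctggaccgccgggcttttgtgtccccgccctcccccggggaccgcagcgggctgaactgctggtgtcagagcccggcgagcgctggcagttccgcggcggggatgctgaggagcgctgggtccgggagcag
SESN1: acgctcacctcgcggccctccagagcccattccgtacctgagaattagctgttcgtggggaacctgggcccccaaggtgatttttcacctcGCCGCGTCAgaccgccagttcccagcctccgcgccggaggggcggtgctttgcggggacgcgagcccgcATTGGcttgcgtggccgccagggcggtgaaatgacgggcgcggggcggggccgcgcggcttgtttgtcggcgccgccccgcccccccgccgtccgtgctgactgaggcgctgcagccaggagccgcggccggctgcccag
The motifs were searched on both strands. They were the ATF4 element TGATGNAA, the antioxidant element as TGACNNNGC or TGAGNNNGC, the FOXO element GTAAACA and the CCAAT box, and no match overlapped another. The SESN2 window held 2 CCAAT boxes, read on the opposite strand as ATTGG, at -151 to -147 and at -86 to -82, and no other motif of the set. The second SESN1 window held TGACNNNGC at -159 to -151 and a CCAAT box at -90 to -86, both read on the opposite strand. Of the SESN1 windows not printed, the third held a CCAAT box at -75 to -71 and the first held none of the set. The SESN3 window held none either. In 35114 windows of this length, a CCAAT box was present in 34.6%, TGACNNNGC in 13.3%, TGAGNNNGC in 18.3%, TGATGNAA in 3.62% and GTAAACA in 3.42%. The arrays do not say which SESN1 start was used. Elements outside these windows were not searched, so a motif missing here may lie further from the start. SESN1 had 3 windows in which to match and SESN2 had 1.

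Values are the authors' RMA log2 intensities, so a difference of 1 is a doubling. Median log2 intensity was 5.15 to 5.64 over the arrays. A gene was tested if its level reached 5 on at least 3 arrays, and 12155 genes were. Between arrays of the same replicate number 46.9% to 57.6% of probe sets had exactly the same value, so differences are also given within each replicate number. Between arrays of different numbers at most 0.00373% tied. Where arrays of a number tie, the difference is listed as 0. All 7 endothelial markers with a probe set, among them PECAM1, KDR and ENG, were at or above the floor of 5 on all 9 arrays. Of 7 epithelial markers 6 were as well, among them the keratins KRT8 and KRT18, of the A549 parent type. EPCAM reached the floor on 3 arrays. The endothelial marker VWF had a control mean of 5.98. KRT19, CLDN4, SFTPC and NKX2-1 had control means of 6.12, 5.46, 5.88 and 5.95. Markers of other cell types were also read. Of 2 for leukocytes, CD68 had a control mean of 11.82 and reached the floor on all 9 arrays, and CD14 on 3. The 2 for fibroblasts or smooth muscle, DCN and LUM, were under it on all 9. The floor lay under the median of every array, so reaching it does not by itself show that a marker is expressed. The summed log2 levels of the 7 endothelial markers were 67.2 to 70.1 with 5 nm particles, 68.5 to 71.2 with 100 nm particles and 68.5 to 71.4 in controls. Those of the 7 epithelial markers were 44.7 to 49.7, 44.9 to 49.99 and 44.9 to 50.2 in the same order of groups. An array cannot tell a change in every cell from a larger one in part of the cells.

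SESN2 had a larger measured difference with 5 nm particles than SESN1. Its log2 level was 11.17, 12.15 and 10.59 with 5 nm particles in replicates 1, 2 and 3, against 9.01, 8.76 and 9.24 in controls. Every 5 nm array lay above every control array, a separation that 1.41% of tested genes showed in that direction. The group means were 11.30 ± 0.79 with 5 nm particles and 9.001 ± 0.24 in controls (± SD of 3 arrays). They lay 2.30 apart, which is 4.93-fold. The standard error of this difference was 0.36 in limma on all 9 arrays, which pools the spread of the 3 groups. With the replicate number as a block it was 0.47. Over the 3 replicate numbers the difference had an SD of 1.03. Within replicate numbers 1, 2 and 3 the difference was 2.17, 3.39 and 1.35, or 4.49-fold, 10.5-fold and 2.55-fold. SESN2 stood 12th, 8th and 24th from the top among the 12155 genes in those numbers, and 10th by the mean difference. In all, 16 genes, SESN2 included, were higher by at least 1.35 in every number.

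SESN1 went the other way and by less. Its log2 level was 6.66, 5.58 and 6.59 with 5 nm particles in replicates 1, 2 and 3, against 7.09, 6.84 and 6.96 in controls. Every 5 nm array lay below every control array, as in 0.469% of tested genes. The means were 6.27 ± 0.61 with 5 nm particles and 6.96 ± 0.12 in controls (± SD of 3 arrays). Between them the difference was -0.69, which is 0.620-fold. Its standard error was 0.28 in the same limma fit to all 9 arrays and 0.24 with the block. Over the 3 replicate numbers this difference had an SD of 0.50. Within replicate numbers 1, 2 and 3 the difference was -0.42, -1.27 and -0.38, which were 0.747-fold, 0.416-fold and 0.769-fold. SESN1 stood 268th, 45th and 209th from the bottom among tested genes, and 67 genes, SESN1 included, were lower by at least 0.38 in every number.

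**Figure D1:**
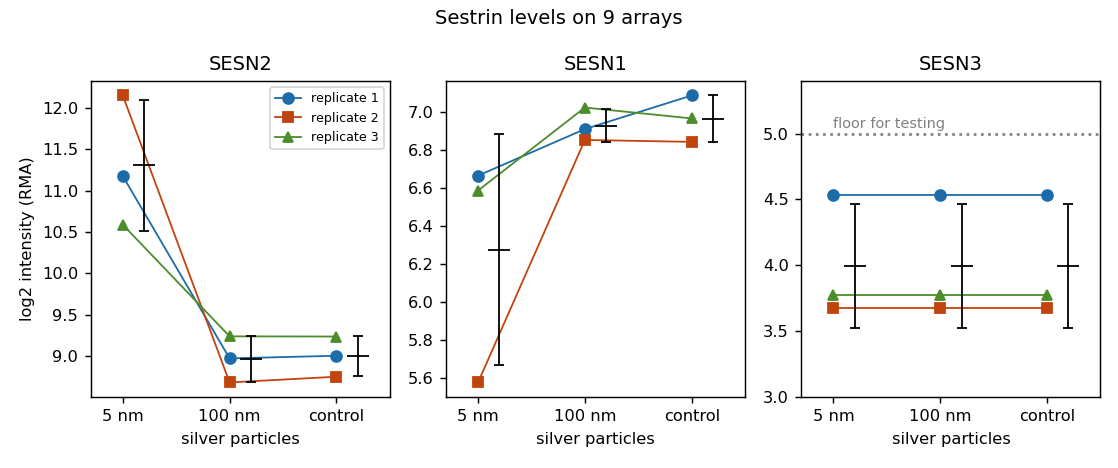
RMA log2 intensity of SESN2, SESN1 and SESN3 (y axes of different range) in cells exposed to 5 nm particles, 100 nm particles and control cells; coloured points joined by a line are arrays of 1 replicate number, and black bars are the group mean ± SD of 3 arrays. The 3 arrays with 5 nm particles stand between 10.59 and 12.15 for SESN2 and between 5.58 and 6.66 for SESN1, apart from the 6 other arrays, while SESN3 is level within each number and under the floor of 5.

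For both paralogs the largest difference was in replicate 2. In that number 201 genes were at least doubled and 143 at least halved with 5 nm particles, against 63 and 1 in replicate 1 and 43 and 2 in replicate 3. Replicate 2 therefore differed more in many genes, and the part this plays in the sestrin values was not tested. Without the 3 arrays of replicate 2, an alternative added after the values were seen, the difference was 1.76 for SESN2 and -0.40 for SESN1. Without the 5 nm array of replicate 2 alone it was 1.88 for SESN2 and -0.34 for SESN1. Over all 22 alternatives, SESN2 stayed between 1.76 and 2.78 and SESN1 between -0.88 and -0.34. The gap between the paralogs, taken as the SESN2 difference minus the SESN1 difference within a number, was 2.59, 4.66 and 1.73 log2 units in replicates 1, 2 and 3.

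**Figure D2:**
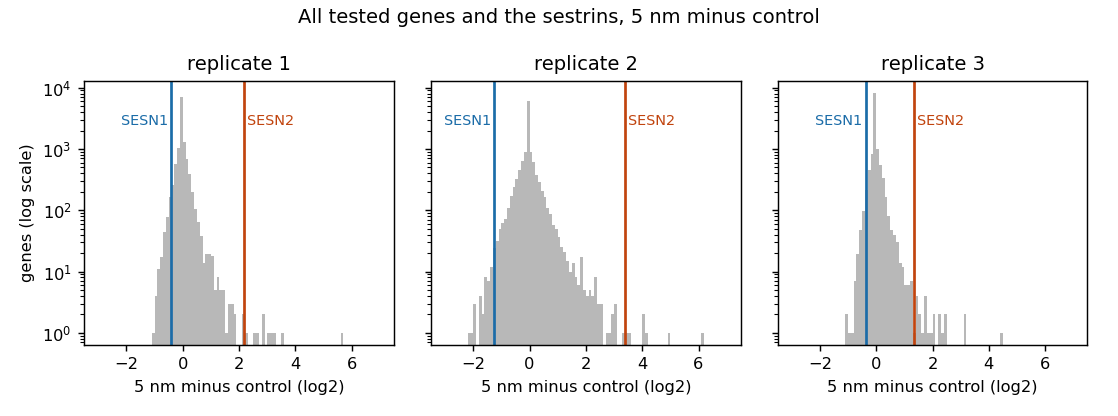
Number of tested genes (log scale) at each 5 nm minus control difference in log2 units, in bins of 0.1, for replicates 1, 2 and 3; vertical lines mark SESN1 and SESN2. SESN2 lies at 2.17, 3.39 and 1.35 in the right tail and SESN1 at -0.42, -1.27 and -0.38 in the left tail, and the spread of all genes is widest in replicate 2.

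The 100 nm particles were not used to choose these genes, so their comparison with controls was tested. SESN2 was at 8.98, 8.69 and 9.24 with 100 nm particles in replicates 1, 2 and 3, against the control values of 9.01, 8.76 and 9.24 given above. The groups overlapped, and within numbers the difference was -0.032, -0.069 and 0.0023. SESN1 was at 6.91, 6.85 and 7.02 with 100 nm particles, against 7.09, 6.84 and 6.96 in controls. These overlapped too, with differences of -0.18, 0.010 and 0.057 within numbers 1, 2 and 3.

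Neither paralog passed for 100 nm particles. The mean difference was -0.033 for SESN2 (95% interval -0.82 to 0.76) and -0.036 for SESN1 (-0.66 to 0.59), each with an adjusted p of 1 in limma with Benjamini-Hochberg adjustment. With the replicate number as a block the adjusted p was 1 for both, and the SESN2 interval was -1.27 to 1.21. The fits with and without the block both pool the spread of the 5 nm arrays. Fitted with the block to the 2 groups alone, with 2 residual degrees of freedom, the interval was -0.10 to 0.038 for SESN2 and -0.28 to 0.21 for SESN1. In that fit the bounds correspond to 0.930-fold to 1.03-fold for SESN2 and 0.821-fold to 1.16-fold for SESN1. Over all tested genes 0 passed in limma with or without the block (0% each way), with 0 and 33 at an unadjusted p under 0.05 in that order.

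**Figure D3:**
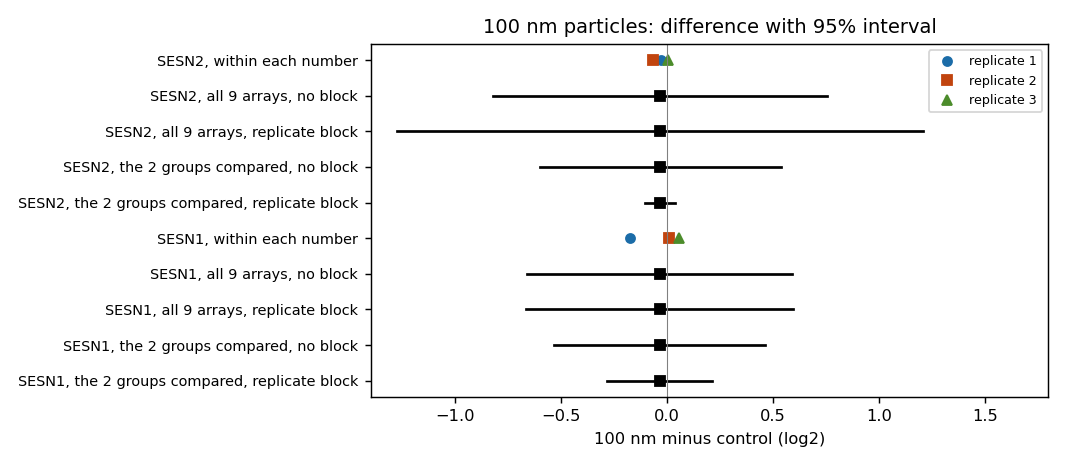
Difference between 100 nm particles and controls in log2 units for SESN2 and SESN1; squares with lines are the mean difference with its 95% interval in limma under 4 fits, and coloured points are the differences within each replicate number. All 8 intervals include 0, and the narrowest, -0.10 to 0.038, is that of SESN2 with the block on the 2 groups compared.

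Set against 100 nm particles, which share the same 5 nm arrays, SESN2 was higher with 5 nm particles by 2.20, 3.46 and 1.35 in numbers 1, 2 and 3 (mean 2.33). SESN1 differed by -0.24, -1.28 and -0.44 (mean -0.65). Every 5 nm array lay above every 100 nm array for SESN2 and below for SESN1, separations found in 1.37% and 0.444% of tested genes. The 5 nm group therefore held the highest SESN2 level and the lowest SESN1 level of the 3 groups, and the ranges of the 100 nm and control levels overlapped for both genes.

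SESN3 lay under the level at which genes were tested. Its log2 level was 4.54, 3.67 and 3.77 in replicates 1, 2 and 3, and it was the same on all 3 arrays of a number, in exposed and control cells alike. It was under the floor of 5 on all 9 arrays and was not tested. Of 2573 genes under the floor on every array, 31.1% showed such identical values in every number, against 13.4% of genes tested. The 0 of SESN3 therefore sets no limit on its change.

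The genes whose array profile was most like that of SESN2 were found by Pearson correlation over the 9 arrays, each value taken minus the mean of its replicate number, among 1885 other tested genes whose values spanned at least 0.5. The 5 closest were GEM, a small GTP-binding protein (r = 0.999), PLAA, a ubiquitin-binding partner of the p97 ATPase (0.999), GDAP2 (0.999), IPMK, an inositol phosphate kinase (0.998), and DDIT3, the stress factor CHOP (0.998). With 5 nm particles GEM was higher than in controls by 1.15, 1.87 and 0.69 in replicates 1, 2 and 3. DDIT3 was higher by 2.63, 4.09 and 1.76. These followed SESN2's order, with replicate 2 highest and replicate 3 lowest, which their choice by correlation with SESN2 favoured. PLAA, GDAP2 and IPMK kept that order at smaller size, with mean differences of 0.59, 0.68 and 0.61. None of the 5 passed in limma with Benjamini-Hochberg adjustment for 5 nm particles, with adjusted p from 0.266 to 1, or from 0.119 to 0.154 with the block. The 5 were chosen on these same arrays, so these p-values are not an independent test.

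The closest profiles to SESN1 were those of F8A1 (r = 0.996), which has near-identical copies that the array may not separate, TP53INP1, a stress-induced nuclear protein (0.996), TRIM25, a ubiquitin ligase (0.994), ISOC1 (0.994) and TMEM218 (0.993). TP53INP1 differed by -0.36, -1.22 and -0.44 in numbers 1, 2 and 3, close to the values of SESN1, and F8A1 by -0.50, -1.23 and -0.44. None of these 5 passed (adjusted p = 1 in limma each, 0.244 to 0.321 with the block), and these p-values too come from the arrays that chose the genes. SESN1 and SESN2 themselves correlated at r = -0.95 over the 9 arrays. Their choice for opposite 5 nm differences favoured a negative r in advance. Such values are descriptions: the arrays share 3 sets and a common contrast, and 493 of the 1885 genes exceeded r = 0.9 with SESN2 and 713 with SESN1.

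**Figure D4:**
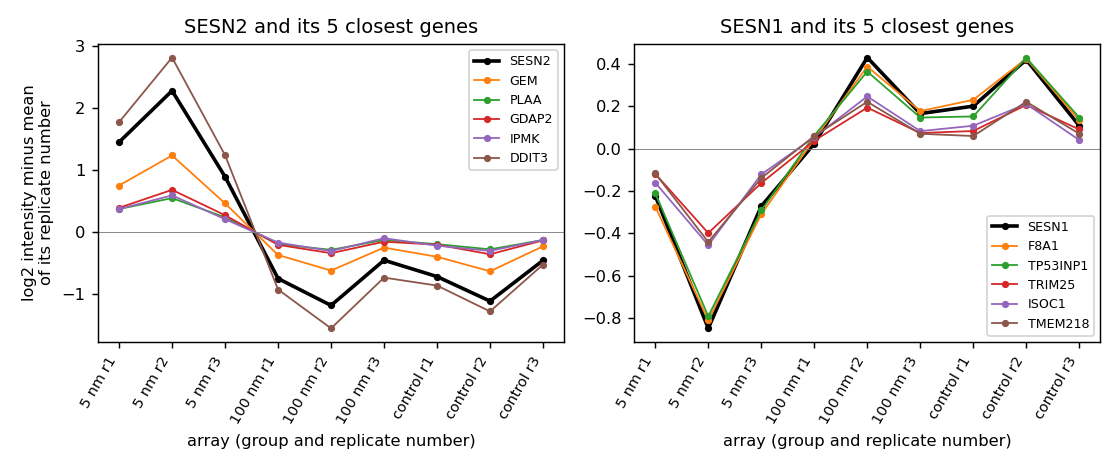
Log2 intensity minus the mean of its replicate number on the 9 arrays (r1, r2 and r3 are the replicates) for SESN2 with its 5 closest genes and SESN1 with its 5 closest, the sestrin in black. SESN2 and DDIT3 peak on the 5 nm array of replicate 2, where SESN1, F8A1 and TP53INP1 are lowest.

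Of 7 tested factors known to control sestrins, 3 had positive and 4 had negative differences with 5 nm particles, with a median of -0.034. That median ranged from -0.25 without 5 nm replicate 1 to 0.21 without control replicate 1. It was also positive without 5 nm replicate 2 (0.21), 5 nm replicate 3 (0.20) or all of replicate 2 (0.064). In the same order the median of all genes was -0.17, 0.14, 0.081, 0.043 and 0. XBP1, an endoplasmic reticulum stress factor, differed by 0.75, 1.36 and 0.62 in replicates 1, 2 and 3, NFE2L2, which encodes NRF2, by 0.36, 0.89 and 0.27, and ATF4 by 0.28, 0.46 and 0.22. ATF4 is known to be controlled mainly in translation, which an RNA array does not read. FOXO1 differed by 0, 0 and -0.10, FOXO3 by -0.028, -0.42 and 0.16, and FOXO4 by 0, -0.023 and -0.20. KEAP1, which holds NRF2 back, differed by 0, -0.41 and 0. Of the 7, 0 passed in limma with or without the block, where 0.0740% of all genes passed higher and 0% lower, and 0.296% and 0.354% with the block.

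FOXO targets had no common direction. Of 22 listed, 15 were tested. Of these, 7 were positive and 7 negative with 5 nm particles, with a median of 0, which was also the median of all genes. In all 3 numbers 3 (20%) were higher and 4 (26.7%) lower, against 8.03% and 13.4% of all genes. KLHL24 (0.64, 1.42 and 0.39 in replicates 1, 2 and 3), BCL6, a transcriptional repressor (0.27, 1.33 and 0.31), and CCNG2, cyclin G2 (0.31, 0.80 and 0.11), had the largest differences of constant sign, and KLF2, an endothelial transcription factor, differed by -0.14, -0.60 and -0.078. None passed in limma with or without the block.

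ATF4 targets and amino acid response genes other than SESN2 were divided by size. Of 33 listed, 18 had a probe set. Of 17 tested, 13 were positive, as were 35.9% of all genes, with a median of 0.10, and 8 (47.1%) were higher in all 3 numbers, against the 8.03% of all genes; 0 were lower in all 3. Leaving out single arrays changed the list median. It was 0.027, 0.23 and 0.37 without 5 nm replicate 1, 2 or 3, and 0.39 without control replicate 1. In that order the median of all genes was -0.17, 0.081, 0.043 and 0.14. Without all of replicate 2 or 3 the list median was 0.059 and 0.17, and that of all genes was 0. After DDIT3, given above, DDIT4, which restrains mTORC1 through the TSC complex, differed by 1.47, 2.91 and 0.41 in replicates 1, 2 and 3. TRIB3, a pseudokinase induced by ATF4, differed by 1.07, 2.46 and 0.63, and ATF3, a stress-induced transcription factor, by 1.43, 1.82 and 0.60. Higher by over 0.5 in every number were 3 members, DDIT3, TRIB3 and ATF3, and 0.814% of all genes. The amino acid enzymes differed by less: CTH, cystathionine gamma-lyase, differed by 0.92 and ASNS, asparagine synthetase, by 0.64 in the mean, while PHGDH and PSAT1 of serine synthesis differed by 0.020 and 0.048 (these 4 chosen after their values were seen). No member passed in limma with or without the block.

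Of 24 NRF2 targets listed, 11 were tested. Of these 11, 1 passed higher with 5 nm particles without the block and 3 with it, against 0.0740% and 0.296% of all genes. Of the 11, 9 were positive, as were 35.9% of all genes, with a median of 0.41, and 6 (54.5%) were higher in all 3 numbers, as were 8.03% of all genes. The median was 0.23 without 5 nm replicate 1 and up to 0.61 without control replicate 1. In that order the median of all genes was -0.17 and 0.14. HMOX1, heme oxygenase, rose by 3.58, 4.06 and 3.18 in replicates 1, 2 and 3 (mean 3.61, adjusted p = 0.000704 in limma with Benjamini-Hochberg adjustment, 0.0202 with the block). It did not pass with the block on the 2 groups compared (adjusted p = 0.451), where 0 genes passed, or with all arrays of a number left out (0.135 to 0.626), and passed under 18 of 22 alternatives. The SD of its difference over the 3 numbers was 0.44, against 1.03 for SESN2. TXNRD1, thioredoxin reductase (0.69, 0.90 and 0.78), and GSR, glutathione reductase (0.41, 0.31 and 0.39), passed in limma with the block (adjusted p = 0.0202 and 0.0327) and did not pass without it (adjusted p = 1 each). With the block on the 2 groups compared neither passed (0.484 each), and TXNRD1 also passed after quantile normalization without the block (0.0277). SRXN1, sulfiredoxin, which reactivates oxidised peroxiredoxins, differed by 0.88, 1.39 and 0.76 without passing under any setting tried.

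The peroxiredoxins, the enzymes the sestrins are linked to, had small listed differences. PRDX1 differed by 0.044, 0.22 and 0.0013 in replicates 1, 2 and 3, and PRDX2 and PRDX6 were listed at 0 in every number. These 0 values are ties between arrays and set no limit on a change. Over the 11 tested genes of the cycle the median was 0, with 4 positive and 5 negative. TXNRD1 was the 1 that passed, under the settings just given. With the block, 0.296% of all genes passed higher. TXNRD2, the mitochondrial reductase, differed by -0.24, -0.63 and -0.17.

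The complexes through which sestrins act had small differences with 5 nm particles. In GATOR1, GATOR2 and KICSTOR, 6 of 9 tested members were negative, with a median of -0.13 and a range of -0.20 to 0.082, and 4 (44.4%) were lower in all 3 numbers; of all genes 45.1% were negative and 13.4% lower in all 3. The median was -0.30 without 5 nm replicate 1, -0.079 and -0.086 without 5 nm replicate 2 or 3, and -0.046 without all of replicate 2. It turned to 0.0092 without control replicate 1, where the median of all genes was 0.14. Without 5 nm replicate 1, 2 or 3 that of all genes was -0.17, 0.081 and 0.043. NPRL2, a GATOR1 subunit, differed by -0.21, -0.23 and -0.15 and fell with the block (adjusted p = 0.0426 in limma), though not without it (adjusted p = 1) or with the block on the 2 groups compared (0.548). With the block over the 9 arrays, 0.354% of all genes passed lower. SEH1L, a GATOR2 subunit and nuclear pore protein, differed by -0.088, -0.14 and -0.16, and WDR59 of GATOR2 by -0.090, -0.23 and -0.0017. Of 11 Rag, Ragulator and amino acid sensor genes 5 were positive and 5 negative, between -0.27 and 0.31, led among those of 1 sign by FNIP1, a folliculin partner (0.23, 0.38 and 0.21). No member of these passed.

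In the list of mTORC1 and its brakes, 14 were tested and 12 of them differed by -0.16 to 0.19; the others were DDIT4 (1.59 in the mean) and RHEB, the GTPase that activates mTORC1 (0.30). AMPK subunits were not analysed here. Of 9 tested genes of the AMPK and autophagy list, SQSTM1, an autophagy receptor reported to bind sestrins, had the largest mean difference (0.57, from 0.57, 0.76 and 0.37 in numbers 1, 2 and 3), followed by RB1CC1, a subunit of the ULK1 complex (0.45, 0.78 and 0.26). ULK1, ULK2 and ATG13 were listed at 0 in every number. None of the members of either list passed in limma with or without the block.

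**Figure D5:**
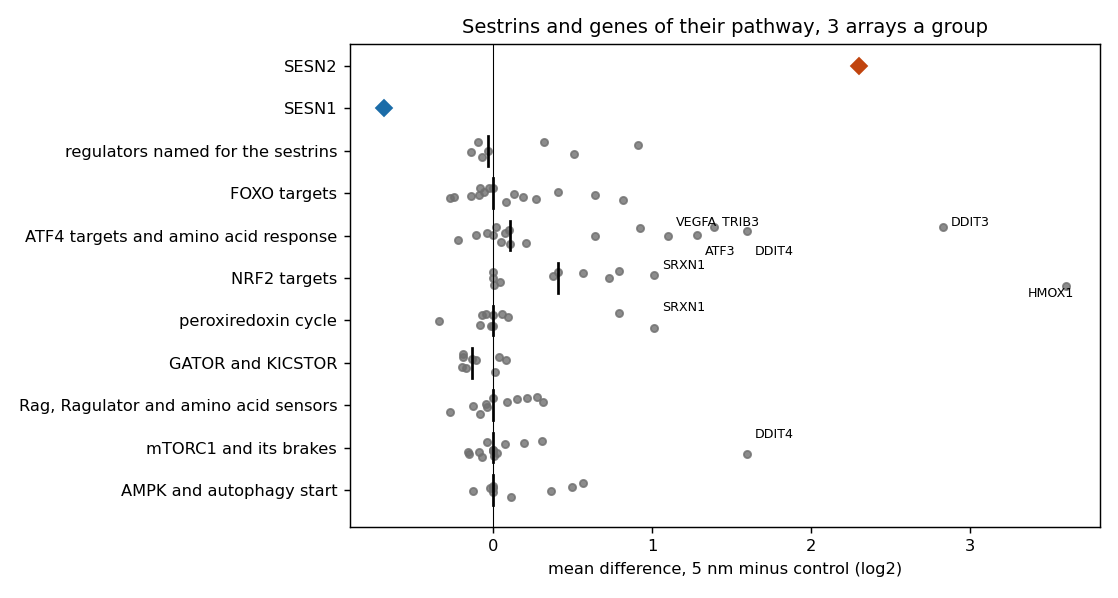
Mean 5 nm minus control difference in log2 units for SESN2, SESN1 (diamonds) and each tested member of 9 gene lists without the sestrins (circles), with the list median as a vertical line; vertical scatter within a row has no meaning, and genes above 1 are named. The NRF2 list has its median at 0.41 and the GATOR and KICSTOR list at -0.13, and of the named genes DDIT4 and SRXN1 appear in more than 1 list.

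With 100 nm particles no member of these 9 lists passed, and their differences from controls ran from -0.18 (DDIT3) to 0.17 (HMOX1). HMOX1 differed by 0.20, 0.15 and 0.18 in replicates 1, 2 and 3, TXNRD1 by 0.093, 0.12 and 0.11, and GSR by 0.065, 0.087 and 0.15. These were the 3 NRF2 targets (27.3% of those tested) higher in every number, against 1.25% of all genes. DDIT3 differed by -0.064, -0.27 and -0.21, TP53INP1 by -0.090, -0.064 and 0, and NFE2L2 by 0.071, 0.12 and -0.0050.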

How the data were processed

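RNA of 9 EA.hy926 samples (300 ng each) was labelled and hybridised to Affymetrix whole-transcript arrays, per the labels' protocols. The authors deposited log2 intensities made with RMA (Affymetrix Expression Console, version 1.3.1), as the submitters' processing notes record; no genome build is named there. Of 53617 probe sets 16098 had 1 symbol, 0 several and 37519 none, and symbols were updated through the Entrez identifier. The probe set with the highest mean stood for a gene.

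Linear models with a mean per group were fitted in limma 3.58.1 (R 4.3.3; lmFit, eBayes) to the 9 arrays together, which left 6 residual degrees of freedom. P-values had Benjamini-Hochberg adjustment over 12155 genes and a threshold of 0.05; the code was tested on simulated data. The replicate numbers come from the labels. Deviations from group means correlated at 0.762 to 0.967 between arrays of the same number (9 pairs) and at -0.58 to -0.26 otherwise (18 pairs). Deviations cancel out within a group, so the negative values add no separate evidence. Arrays of a number were thus alike, and the source of this likeness was not tested. A fit with the number as a block (4 residual degrees of freedom) is given where it changes a call. Many values tie between arrays of a number, a pattern that RMA run on 3 arrays at a time leaves; the notes do not state such a step, and it was not tested. Alternatives were other fits, filters, scalings, probe set choices and left-out arrays. Precision is limited by 3 arrays a group.

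The members and lists were chosen with earlier results of these data known. Named genes were the sestrins, known regulators, up to 4 members a list (those called, then the largest of constant sign) and the 5 closest profiles to each paralog; others are said to be chosen after their values were seen. A list's p was not computed. Promoter windows were taken from RefSeq. One further gene list and motif are not reported here.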

Additional observations from a re-analysis of the deposited data

How the results depend on the processing

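The numbers of genes called for 5 nm minus control and for 5 nm minus 100 nm depended on the setting. With 9 and 8 genes at the settings used, they were 79 and 75 with the replicate block, 0 and 0 with the replicate block on the 2 groups compared, 15 and 15 with a stricter filter (a level of 6), 4 and 4 with arrays centred on their median, and 16 and 17 with quantile normalization over the 9 arrays. The trended variance prior gave 13 for 5 nm minus 100 nm. With 1 array or all arrays of a number left out they ranged from 0 to 15 and from 0 to 19; leaving out a whole number, added after the values were seen, gave 0 each time, with fewer arrays. The count for 100 nm minus control was 0 under all 22 alternatives. The 5 nm differences of SESN1 and SESN2 kept their sign and stayed within 1 SD of the values over numbers under all 22. The 100 nm difference of neither gene passed under any; its sign turned positive when 100 nm replicate 2 was left out (0.11 for SESN2, 0.0015 for SESN1), and likewise without control replicate 3 for SESN2 (0.087) and without control replicate 1 (0.024) or all of replicate 1 (0.034) for SESN1. Over left-out arrays it ranged from -0.17 to 0.11 for SESN2 and from -0.098 to 0.034 for SESN1. Leaving out 1 array unbalances the numbers, and the median of all genes then shifted by up to -0.17. SESN3 was 0 in both comparisons without a filter and had no value in the others, being under the floor. Of the list medians and counts of members called with 5 nm particles, 311 values kept their place and 67 moved. With the block over the 9 arrays the calls of TXNRD1, GSR and NPRL2 were gained and no other call named was changed; with the block on the 2 groups compared, the call of HMOX1 was lost.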

Other observations

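FOXO3 carried a second, dimmer probe set, which was 6.64, 6.05 and 6.25 in replicates 1, 2 and 3 and identical on the 3 arrays of each number, while the brighter one differed by -0.028, -0.42 and 0.16 between 5 nm particles and controls. Over all 14884 genes with a symbol, 16.4% had identical values within every number.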
